A study of Homo sapiens with 12 samples.

Results

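Total RNA was compared between A375 cells given interferon-gamma (IFNg, 24 h) together with silvestrol (2 h) and A375 cells given only DMSO (2 h). A375 is an established line from a human melanoma. The comparison takes 4 of the 12 arrays of the study, 2 per group, and all 65535 transcript clusters of the deposited table. A transcript cluster is the unit into which the array groups its probes for 1 transcribed locus. Those whose log2 intensity averaged 7 or more across the 12 arrays, 7808 clusters (11.9%), are called bright here and received most attention. The other 8 arrays hold total RNA after IFNg alone (2), and polysome-associated RNA after DMSO (2), IFNg (2) and IFNg with silvestrol (2). The labels name no solvent for the IFNg groups, there was no group with silvestrol alone among the samples used here, and the groups compared differ in hours of treatment as well as in agents. So the comparison gives the joint change of IFNg and silvestrol, and the share of each agent cannot be told apart within it. Whether the 2 arrays of a group stand for separate cultures is not in the labels. The p-values rest on the spread among the arrays alone, and that spread may be technical.

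IFNg binds a receptor on the cell surface, and the signal passes through the Janus kinases JAK1 and JAK2 to GAS elements in promoters, which switch on genes such as the transcription factor IRF1. IRF1 and its relatives bind a second kind of element, the ISRE, and together these factors raise antigen presentation, guanylate-binding proteins, chemokines and the checkpoint ligand PD-L1, as is known for melanoma cells. Silvestrol is a plant-derived inhibitor of eIF4A, the RNA helicase of the eIF4F complex that prepares the 5' ends of mRNAs for ribosomes, and it blocks the translation of many mRNAs.

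With IFNg plus silvestrol, 350 of the 65535 clusters rose (0.534%) and 117 fell (0.179%) in total RNA, by limma's moderated test with Benjamini-Hochberg adjustment over all clusters at a threshold of 0.05. Among bright clusters 252 rose (3.23%) and 104 fell (1.33%). The bright bound averages over treated arrays too, so a cluster dim with DMSO could pass it because it rose. Of the bright rises 65 had a DMSO mean below 7, and of the bright falls 0 did. An IFNg plus silvestrol mean below 7 was found in 0 of the bright rises and 13 of the bright falls. The bright share of rises may therefore be raised by the bound itself. The rises were the larger changes: their median was 2.53 on the log2 scale, 242 exceeded 4-fold, 111 exceeded 8-fold and 33 exceeded 32-fold. The falls had a median of -2.07, 65 exceeded 4-fold, 7 exceeded 8-fold and 0 exceeded 32-fold. The median change of all clusters was -0.0023 and that of bright clusters -0.0815. Most clusters were dim and the normalization of the deposited intensities is not known. These medians therefore cannot show whether RNA levels as a whole differed between the 2 groups. All 467 called clusters had no overlap between the 2 arrays of one group and the 2 of the other, which 37.4% of all clusters also showed. The counts depend on having both arrays of each group. Without DMSO array 1 or 2 the test called 218 or 225 clusters higher and 55 or 103 lower, and without IFNg plus silvestrol array 1 or 2 it called 183 or 181 higher and 40 or 38 lower.

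**Figure D1:**
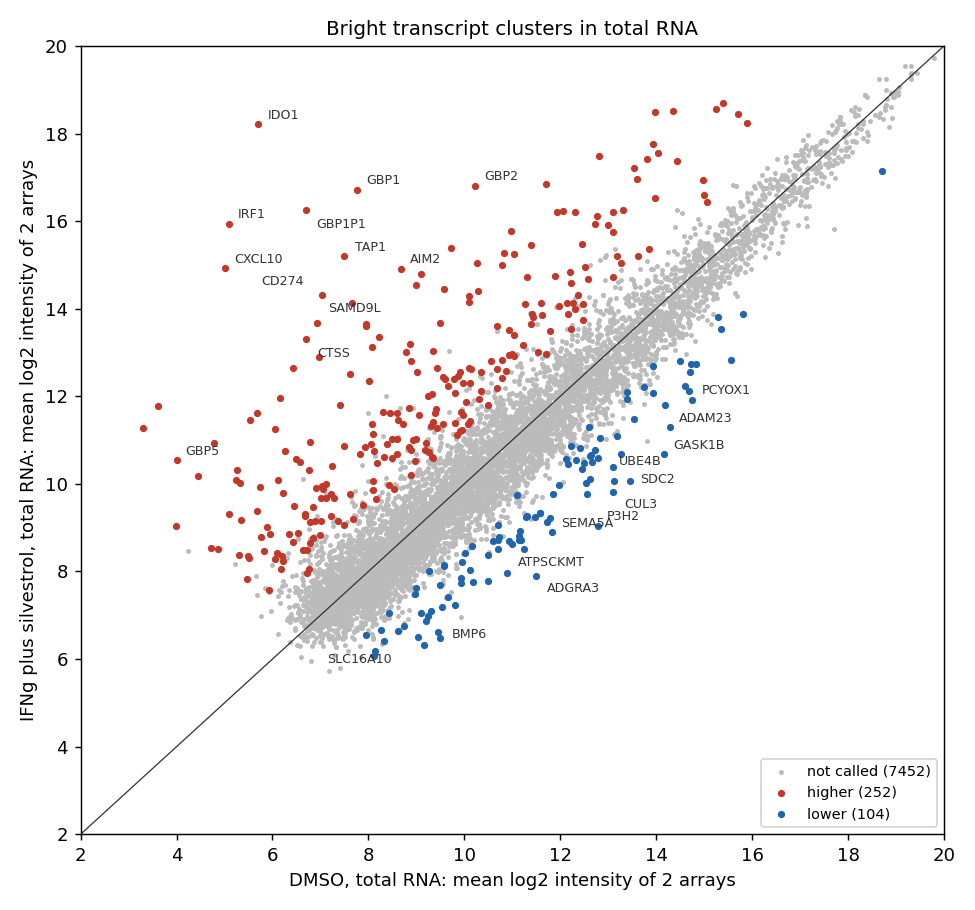
Mean log2 intensity of each bright transcript cluster in total RNA, DMSO on the x axis and IFNg plus silvestrol on the y axis, with 2 arrays behind each mean and the diagonal marking equal levels. Red points are the 252 clusters that rose, blue points the 104 that fell and grey points the 7452 that were not called; the 12 largest rises and 12 largest falls with a gene symbol are named. Rises start from low as well as from high DMSO levels and reach farther from the diagonal than falls. Clusters dim with DMSO are included only where other arrays lifted their mean to the bright bound.

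The 4 arrays compared were alike in overall signal, with mean intensities of 1569 to 1674 and medians over bright clusters of 9.88 to 10.04 on the log2 scale. Replicate arrays correlated at 0.9784 (DMSO) and 0.9812 (IFNg plus silvestrol) over all clusters. With 2 arrays a group the precision is limited, and a change had a median standard error (SE) of 0.31 on the log2 scale. The smallest called change was 1.25 in size, and differences well above it, such as those of CD47 and CCN2 below, also missed the threshold. The table gives no detection call, 71.6% of clusters had a mean log2 intensity below 5, and 163 of the 350 rises had a DMSO mean below 7. How far such DMSO levels lie above the array's own background is not known, and folds that start from them are ratios of intensities only.

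A gene symbol was available for 221 of the 350 rising clusters and 93 of the 117 falling ones. Counted with 1 cluster per symbol, the brightest, 213 of 15188 genes rose (1.4%) and 93 fell (0.612%), and among 5084 bright genes 191 rose (3.76%) and 89 fell (1.75%). These bright shares are the background for the gene groups below, and for lists with many dim members the shares over all genes are the closer match. Since genes could pass the bright bound because they rose, the bright share of rises may be raised by that bound. The lists were chosen with earlier results of these data known, so their counts describe the members and are no test of a group. Nearly all named changes were in protein-coding genes, with 201 of them higher and 89 lower. Some genes named below have a second, dim cluster that did not pass: JAK2 (-0.12), ERAP1 (0.57), RSAD2 (0.25) and ATPSCKMT (-0.23).

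Genes of the signalling chain were measured in part. In the interferon-gamma signalling list 3 of the 5 members measured rose and 0 fell, and over the alternative settings 1 to 3 rose. IRF1, a transcription factor that IFNg is known to induce, had log2 intensities of 5.40 and 4.76 with DMSO and 15.74 and 16.13 with IFNg plus silvestrol. It went from the low end of the scale to among the bright transcripts, a change of 10.86 ± 0.28 (SE, n = 2 per group) with an adjusted p of 1.02e-09. IRF2, a relative that can oppose IRF1, stood at 9.38 and 8.98 against 10.60 and 10.97, a rise of 1.60 (adjusted p 0.0187). The IRF2 call was lost without any 1 of the 4 arrays compared (adjusted p 0.0561 to 0.208) and with those arrays fitted alone (0.0723). JAK2, the kinase bound to one receptor chain, stood at 8.03 and 7.31 against 9.04 and 9.36, a rise of 1.53 that passed narrowly (adjusted p 0.0434, and 0.317 at its highest over the alternative settings). JAK1, at 10.89 and 10.67 against 10.02 and 9.89, and the receptor chain IFNGR1, at 8.75 and 9.62 against 9.39 and 9.07, did not pass the test.

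Promoters of 4 genes that rose are shown as examples, each with a match to at least 1 of the 2 elements through which IFNg is known to act. Each is the 250 bases before the gene's start in RefSeq on GRCh38.p14, written 5' to 3' on the gene's strand. Capitals mark matches on either strand to GAS (TTCNNNGAA) or ISRE (GAAA, any 2 bases, GAAA). IRF1 (chr5:132490774-132491023, minus strand) has a GAS match 124 to 116 bases before its start, and CXCL10 (chr4:76023498-76023747, minus strand) an ISRE match 221 to 212 bases before. GBP1 (chr1:89065209-89065458, minus strand) has an ISRE match 127 to 118 bases before its start. CD274 (chr9:5450292-5450541, plus strand) has a GAS match 125 to 117 bases before its start and 2 overlapping ISRE matches, 208 to 199 and 202 to 193 bases before.
IRF1: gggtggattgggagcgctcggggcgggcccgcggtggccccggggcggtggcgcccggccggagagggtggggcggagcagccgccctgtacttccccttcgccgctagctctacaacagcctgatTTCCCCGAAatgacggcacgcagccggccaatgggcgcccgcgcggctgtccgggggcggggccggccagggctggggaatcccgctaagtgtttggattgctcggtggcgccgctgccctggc
CXCL10: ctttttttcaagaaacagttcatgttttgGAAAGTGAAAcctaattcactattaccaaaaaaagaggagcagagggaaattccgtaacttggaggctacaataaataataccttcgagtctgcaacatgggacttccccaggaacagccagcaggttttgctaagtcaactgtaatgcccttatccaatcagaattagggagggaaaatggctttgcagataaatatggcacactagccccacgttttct
GBP1: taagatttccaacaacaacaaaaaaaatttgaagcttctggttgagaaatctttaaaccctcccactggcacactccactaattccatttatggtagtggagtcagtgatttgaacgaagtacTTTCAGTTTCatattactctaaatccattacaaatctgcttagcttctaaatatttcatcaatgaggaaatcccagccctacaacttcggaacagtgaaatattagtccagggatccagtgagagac
CD274: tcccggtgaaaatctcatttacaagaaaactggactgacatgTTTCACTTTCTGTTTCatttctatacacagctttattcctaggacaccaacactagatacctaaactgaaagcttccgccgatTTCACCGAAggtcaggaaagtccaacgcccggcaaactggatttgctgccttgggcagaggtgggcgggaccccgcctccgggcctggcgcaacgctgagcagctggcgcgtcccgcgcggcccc
A GAS match was present in 11.7% and an ISRE match in 14.4% of the 222 windows of bright genes that rose, where 145 of the 191 genes had a window. In the 5076 windows of all bright genes tested the shares were 5.65% and 2.76%, and in the 109 windows of bright genes that fell 6.42% and 0.917%. Over all 35116 windows of the RefSeq table they were 6.57% and 3.02%. A match describes these letters and is not evidence of binding, and several windows can belong to 1 gene.

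The guanylate-binding proteins, GTPases that attack the vacuoles of intracellular microbes, rose in 5 of 8 cases and fell in 0, with a list median of 5.94. GBP1 stood at 7.49 and 8.03 with DMSO and at 16.50 and 16.93 with IFNg plus silvestrol, a change of 8.95 ± 0.30 and an adjusted p of 6.19e-09. GBP2 went from 9.998 and 10.44 to 16.68 and 16.94, a rise of 6.59. Both genes were far apart between groups and tight within them. GBP5 had more spread in the treated arrays, with 3.91 and 4.09 against 9.70 and 11.39, and its rise of 6.55 has an SE of 0.92. Its call was lost with a pseudocount of 16 and without IFNg plus silvestrol array 2. GBP3 rose by 5.94 and GBP4 by 5.94, while GBP6 (0.53), GBP7 (1.32) and the GTPase IRGM (-0.22) were dim and did not pass. The pseudogene cluster GBP1P1 rose by 9.57, from 6.35 and 7.03 to 16.07 and 16.45. Probes of near-identical copies can share transcripts, so GBP1P1 and GBP1 may not be separate signals. A second, dim cluster of GBP3 did not change detectably (0.02).

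**Figure D2:**
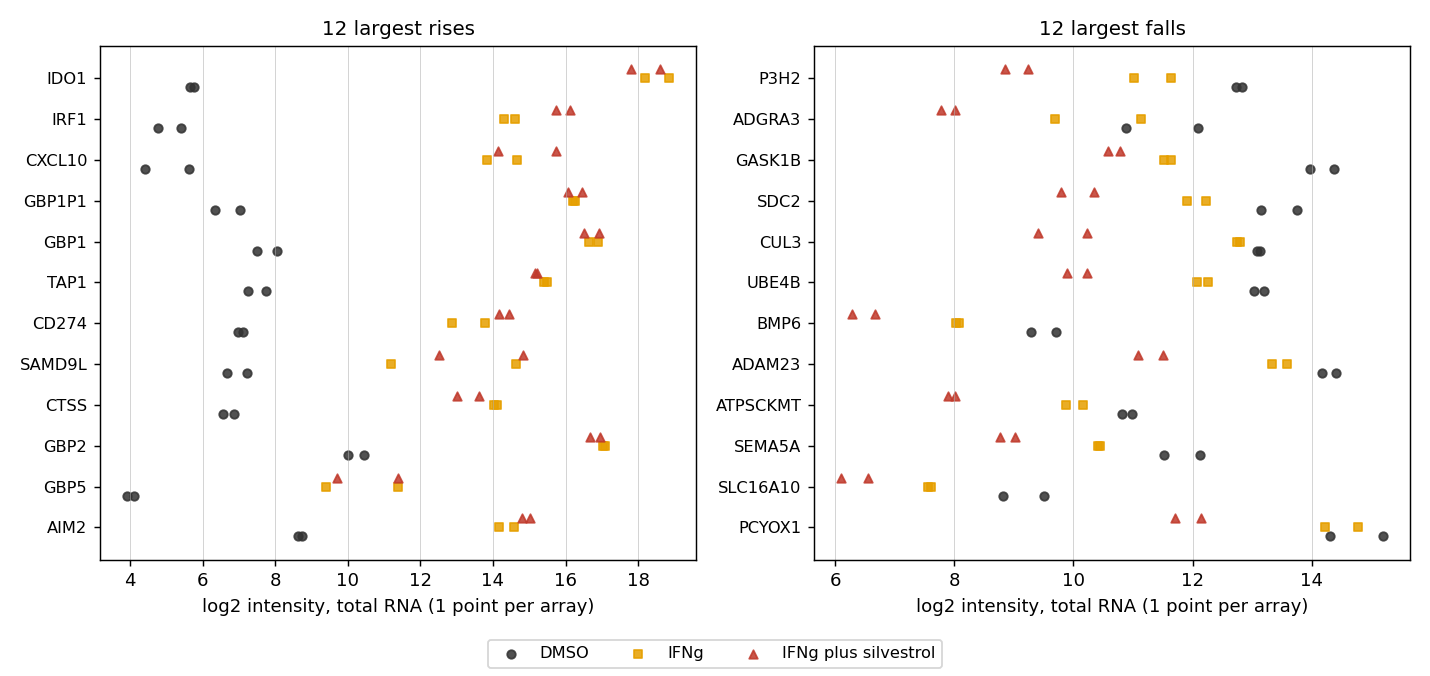
Log2 intensity in total RNA on each of the 2 DMSO (black circles), 2 IFNg (orange squares) and 2 IFNg plus silvestrol arrays (red triangles) for the 12 largest rises (left) and the 12 largest falls (right) among bright clusters with 1 gene symbol. Every red triangle lies apart from the black circles of its gene, from IDO1, with a rise of 12.51, to PCYOX1, with a change of -2.84.

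Antigen presentation by MHC class I is the pathway that shows peptides from inside the cell to CD8 T cells. Of its list 10 of 10 measured members were higher, with a median of 3.56 and a range from 2.45 to 7.70. Other members, B2M among them, were not measured, so the values do not cover the whole pathway. TAP1, a subunit of the peptide pump of the endoplasmic reticulum, stood at 7.23 and 7.75 against 15.23 and 15.16, a change of 7.70 ± 0.26 (adjusted p 6.19e-09). TAP2, its partner subunit, stood at 9.03 and 9.66 against 13.05 and 13.02, a rise of 3.69. Each probe set has its own response, so the sizes of the 2 rises cannot be set against each other. Of the peptide-trimming enzymes, ERAP1 rose by 2.65 from the already high levels of 12.46 and 13.73, and ERAP2 rose by 2.91 from 5.87 and 6.01. TAPBP, or tapasin, which holds the pump to the empty MHC molecule, rose by 2.45.

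Among the heavy chains HLA-E and HLA-F rose most. HLA-F went from 10.37 and 10.17 to 14.90 and 15.20 (4.78) and HLA-E from 10.50 and 11.16 to 15.29 and 15.25 (4.44). The classical chains HLA-B (4.07) and HLA-C (3.42) and the non-classical HLA-G (2.55) rose too. These genes are near-identical over long stretches and vary between people, so probes can be shared and the order of the HLA genes is uncertain. The 2 inducible proteasome subunits measured, which shift cleavage toward peptides that fit MHC class I, both rose. PSMB9 stood at 10.18 and 9.24 against 15.11 and 15.66 (5.67), and PSMB8 at 10.44 and 8.70 against 14.17 and 14.73 (4.88). The antisense lncRNA PSMB8-AS1 rose by 4.81 (adjusted p 4.2e-07) and lies over PSMB8, and how far the 2 signals are separate is not known here.

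MHC class II, which presents peptides from outside the cell and is normally made by professional antigen-presenting cells but is inducible by IFNg, rose in 12 of 13 measured members, with a median of 4.13. HLA-DPB1 stood at 12.58 and 13.04 against 17.39 and 17.58, a change of 4.68 ± 0.31 (adjusted p 4.79e-06). HLA-DQA1 went from 5.95 and 6.36 to 11.55 and 12.36 (5.80) and HLA-DQB1 from 7.41 and 8.47 to 13.60 and 13.60 (5.66). HLA-DOA, part of the modulator of peptide exchange, rose by 6.15, and HLA-DMA and HLA-DMB, which form the exchange factor, by 3.83 and 4.13. The 2 DMSO arrays disagreed for several of these genes. HLA-DRA stood at 14.48 and 16.32 with DMSO against 18.63 and 18.74 (3.29), HLA-DRB1 at 9.67 and 12.28 against 15.69 and 15.83 (4.79), and the invariant chain CD74 at 14.27 and 16.21 against 18.51 and 18.62 (3.32). DMSO array 2 was the higher in all 3. Their calls were lost with a pseudocount of 16, without DMSO array 1 and without either IFNg plus silvestrol array. The CD74 call was also lost with the arrays compared fitted alone. CTSS, the protease that removes the invariant chain, had the largest rise of the list, 6.61 from 6.87 and 6.54. HLA-DOB (1.59) was dim and did not pass.

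Of the immune checkpoint list 3 of 9 members rose and 0 fell. IDO1, the tryptophan-degrading enzyme that restrains T cells, had the largest rise of all named genes: 5.64 and 5.77 with DMSO against 17.81 and 18.61, a change of 12.51 ± 0.44 with an adjusted p of 7.99e-09. CD274, which encodes PD-L1, stood at 7.10 and 6.97 against 14.43 and 14.18, a change of 7.27 ± 0.33 with an adjusted p of 1.33e-07. PDCD1LG2, which encodes the second PD-1 ligand PD-L2, rose by 2.63 from 4.28 and 4.67. CD47, the signal against phagocytosis, stood at 12.70 and 13.60 against 15.38 and 15.35, a difference of 2.21 that did not pass (adjusted p 0.098), though its arrays did not overlap. The paralogue IDO2 (-0.11) and the ligands CD80 (-0.07) and CD86 (-0.28), which are made by antigen-presenting cells, stayed dim.

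Chemokines and cytokines were mostly dim, with 2 of 11 members bright, and 5 rose. CXCL10, which draws activated T cells through the receptor CXCR3, stood at 5.63 and 4.41 against 14.13 and 15.73, a change of 9.91 ± 0.53. The other CXCR3 ligands CXCL9 (3.08, from 5.35 and 5.27) and CXCL11 (1.71, from 4.22 and 4.11) rose from low levels. The lymphocyte growth factor IL15 rose by 2.50 and the death ligand TNFSF10, or TRAIL, by 3.76. The TNFSF10 call was lost with a pseudocount of 16, without either DMSO array and without IFNg plus silvestrol array 2. The CXCL11 call was lost without IFNg plus silvestrol array 2. The neutrophil chemokines CXCL1 (0.45), CXCL2 (0.24), CXCL3 (-0.05) and CXCL8 (-0.64), which NF-kB is known to drive, did not pass.

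Antiviral interferon-stimulated genes rose in 12 of 19 cases, with a list median of 2.95, and 0 fell. PARP14, an ADP-ribosyltransferase, stood at 11.67 and 11.72 against 16.91 and 16.77, a change of 5.14 ± 0.25 (adjusted p 2.61e-07). DTX3L and PARP9, which work as a pair in ubiquitin and ADP-ribose transfer, rose by 4.21 and 3.21. The RNA sensor IFIH1, or MDA5, rose by 4.32 from 8.26 and 7.78 to 12.17 and 12.52, and RSAD2, or viperin, by 3.82. ISG15, a ubiquitin-like modifier, went from 6.44 and 5.96 to 7.77 and 8.94 (2.16). SAMD9L rose by 6.74, from 6.67 and 7.21 to 12.51 and 14.84, with an SE of 0.87. Its neighbour SAMD9, at 5.97 and 7.32 against 7.77 and 12.44, did not pass (3.46, SE 1.34). The 2 treated arrays differed by several log2 units for both genes. EIF2AK2, the kinase PKR that halts translation on viral RNA, stood at 14.02 and 13.86 against 14.55 and 15.27 and did not pass, nor did ADAR, IFI16, CMPK2, HERC5 or HERC6. Outside the lists the DNA sensor AIM2, which starts inflammasomes, rose by 6.24 ± 0.31, from 8.73 and 8.62 to 14.80 and 15.02.

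**Figure D3:**
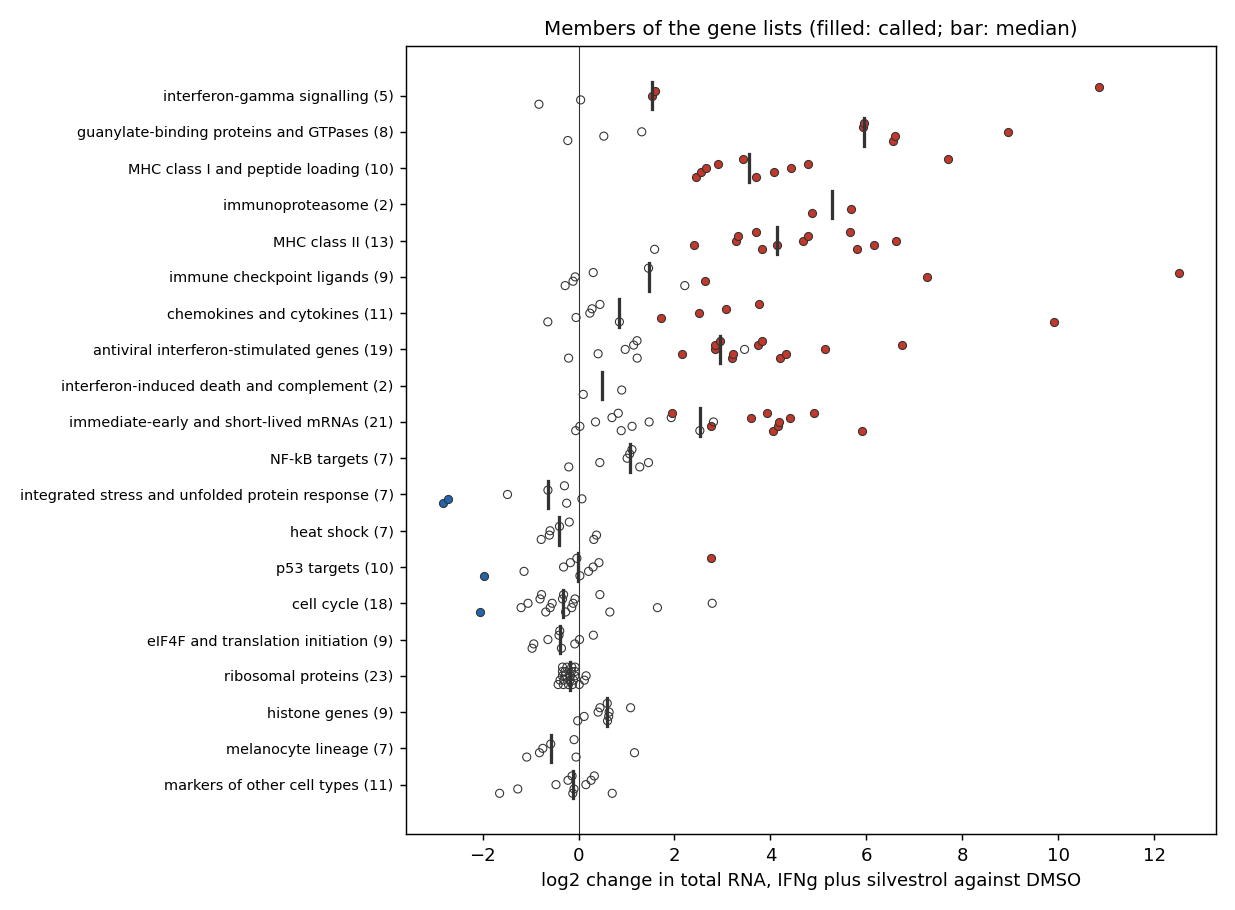
Log2 change in total RNA, IFNg plus silvestrol against DMSO, of every measured member of each gene list, with 1 point per gene (brightest cluster), filled red where it rose, filled blue where it fell and open where not called. The bar is the list's median and the number after each name is how many members were measured; the MHC class I list has 10 of 10 members filled red, and the ribosomal protein list has 23 open points near 0.

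Immediate-early genes made up a second group of rises. Of 21 measured members of the list of immediate-early and short-lived mRNAs, the transcripts that cells make and destroy within minutes to hours, 10 rose and 0 fell, with a list median of 2.53. JUN, a subunit of the AP-1 transcription factor, stood at 7.98 and 5.97 with DMSO and at 13.37 and 12.42 with IFNg plus silvestrol, a change of 5.92 ± 0.71 (adjusted p 0.00098). The zinc-finger factor EGR1 stood at 14.97 and 13.74 against 18.52 and 18.52 (4.17 ± 0.43, adjusted p 0.000307) and EGR3 at 10.24 and 9.97 against 14.52 and 13.80 (4.05). The treated arrays lay above both DMSO arrays by well over the gap between replicates in all 3.

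The nuclear receptor NR4A2 stood at 7.27 and 7.54 against 12.03 and 11.58 (4.40), and KLF10, a TGF-beta-inducible repressor, at 11.75 and 12.38 against 16.30 and 16.16 (4.16). The secreted matrix protein CCN1 rose by 4.91 from 7.83 and 7.38, and the stress factor ATF3 by 3.93 from 7.64 and 5.49. MCL1, a short-lived guard against apoptosis whose mRNA is also short-lived, stood at 13.56 and 14.07 against 17.37 and 17.47, a change of 3.60 ± 0.27 (adjusted p 1.31e-05). IER3 rose by 2.76 and the growth-factor feedback inhibitor SPRY4 by 1.95. SPRY4 is the least certain of these, with an adjusted p of 0.0342 and 0.31 at its highest over the alternative settings.

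At an unadjusted p under 0.05 limma had 17 of the 21 members higher and 0 lower, where 11.6% of all bright genes were higher. Some members had little or no difference, and others missed the adjusted threshold. MYC stood at 11.02 and 9.43 against 10.46 and 10.04, a difference of 0.03, and the growth factor HBEGF at 9.39 and 10.86 against 10.28 and 9.85. ID3 (2.53, adjusted p 0.0506) and CCN2 (2.81, adjusted p 0.129) had differences as large as some called members and did not pass. Both were called with replicate number as a block and with bright clusters fitted alone. ID3 was also called with quantile normalization, among other alternative settings. In CCN2 the treated arrays stood at 14.51 and 12.47 against 10.53 and 10.82, a gap of about 2 log2 units between the treated arrays, and its SE was 0.70.

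Promoters of JUN and EGR1 are shown for comparison, since their known inducible elements are of other kinds. The windows are again 250 bases before the start on GRCh38.p14, for JUN on the minus strand (chr1:58784048-58784297) and for EGR1 on the plus strand (chr5:138465229-138465478). Capitals mark a CRE-like match (TGACNTCA) in JUN, 67 to 60 bases before the start, and 2 CArG boxes in EGR1, 105 to 96 and 83 to 74 bases before. CArG boxes are the sites of serum response factor.
JUN: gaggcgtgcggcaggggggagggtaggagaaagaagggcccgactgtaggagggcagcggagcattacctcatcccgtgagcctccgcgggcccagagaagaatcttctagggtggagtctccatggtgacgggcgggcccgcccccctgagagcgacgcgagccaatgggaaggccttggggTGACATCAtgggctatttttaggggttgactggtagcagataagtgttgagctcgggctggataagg
EGR1: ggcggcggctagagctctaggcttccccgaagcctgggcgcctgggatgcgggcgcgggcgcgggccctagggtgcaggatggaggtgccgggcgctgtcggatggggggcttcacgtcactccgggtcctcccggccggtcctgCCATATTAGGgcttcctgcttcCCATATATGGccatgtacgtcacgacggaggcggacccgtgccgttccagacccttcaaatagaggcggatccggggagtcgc
The EGR1 window also holds a GAS match 228 to 220 bases before the start, left in lower case, and the GBP1 window a CArG box 166 to 157 bases before. A CArG box was present in 3.15% of the windows of bright genes that rose, 1.14% of those of all bright genes tested and 1.16% of all windows. For the CRE-like motif the shares were 7.21%, 5.36% and 6.87%.

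The values with IFNg alone place the 2 groups of rises beside each other. The comparisons of IFNg with DMSO and of IFNg plus silvestrol with IFNg use some of the same arrays as the main one, so their values are given side by side as a description. For the MHC class I list the median log2 change was 3.87 with IFNg alone against DMSO and -0.25 with silvestrol added to IFNg. For MHC class II the medians were 4.13 and -0.14, for the guanylate-binding proteins 5.94 and -0.22, and for the antiviral genes 2.89 and 0.17. For the immediate-early list the order was turned, with 0.37 for IFNg alone and 1.94 for added silvestrol. On the IFNg arrays JUN stood at 8.82 and 7.26, KLF10 at 13.12 and 12.34 and NR4A2 at 7.64 and 7.89, all much nearer to their DMSO levels than to those with silvestrol. JUN (4.85, adjusted p 0.0342), KLF10 (3.50, adjusted p 0.0043), EGR3 (3.27, adjusted p 0.0389) and NR4A2 (4.04, adjusted p 0.0032) passed the test between IFNg plus silvestrol and IFNg, where 0.0412% of all clusters rose. With replicate number as a block, in all groups or in these 2 alone, the 4 calls held. EGR1 and MCL1 were in between. EGR1 stood at 16.34 and 16.61 with IFNg alone and MCL1 at 15.99 and 16.05. IRF1 and CD274 were higher by 1.48 and 0.98 with silvestrol added than with IFNg alone, differences that did not pass (adjusted p 0.146 and 0.799).

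**Figure D4:**
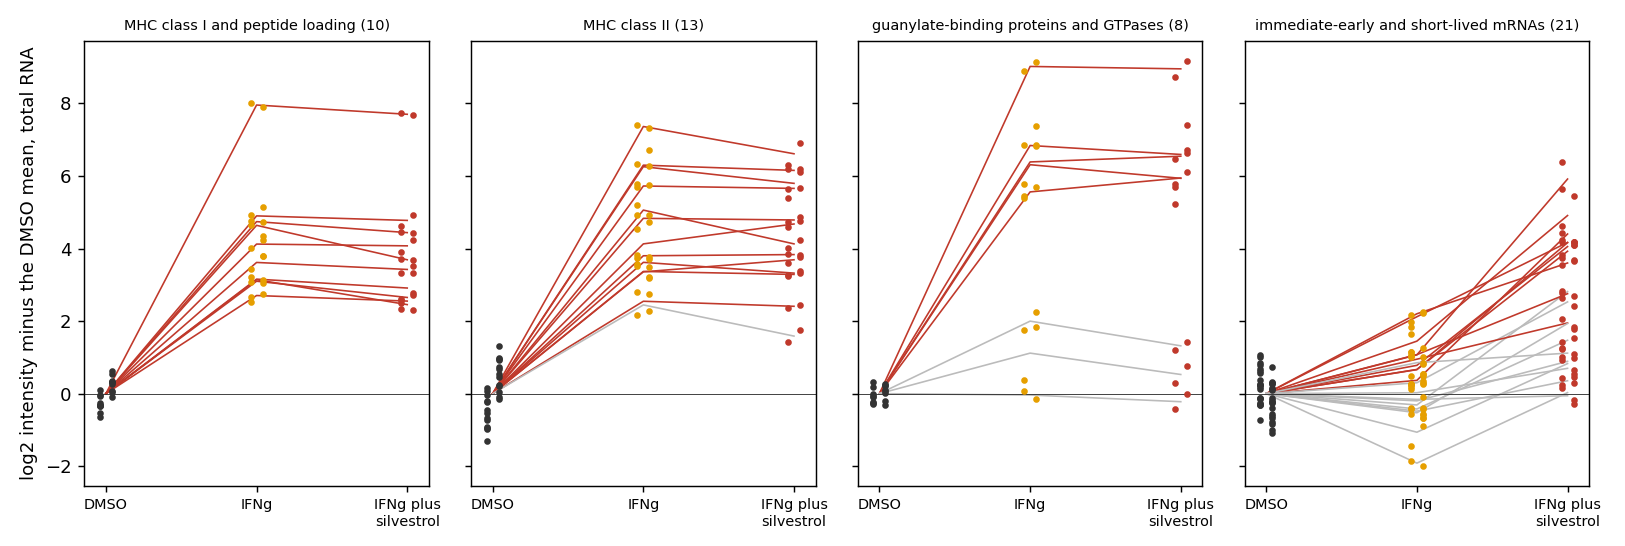
Log2 intensity in total RNA relative to the gene's DMSO mean for the members of 4 gene lists, on the y axis, in DMSO, IFNg and IFNg plus silvestrol, on the x axis. Each line joins the group means of 1 gene (red where it rose in the comparison of IFNg plus silvestrol with DMSO, grey where not called) and points are single arrays. Lines of the 2 MHC lists and the guanylate-binding proteins are high from the IFNg group on (list medians 3.87, 4.13 and 5.94), and most red lines of the immediate-early list climb between IFNg and IFNg plus silvestrol (list median 1.94).

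The falls were smaller. In the stress-response list described below 2 members fell, and in each of the other lists 0 or 1 did. The largest was P3H2, a collagen prolyl hydroxylase, at 12.83 and 12.73 with DMSO against 9.24 and 8.85, a change of -3.74 ± 0.29 (adjusted p 1.99e-05). Next were the adhesion receptor ADGRA3 (10.89 and 12.10 against 8.01 and 7.78, a change of -3.60) and the Golgi-associated protein GASK1B (13.97 and 14.37 against 10.78 and 10.59, a change of -3.49). The cell surface proteoglycan SDC2 stood at 13.15 and 13.75 against 9.78 and 10.35 (-3.38). The other large falls included the growth factor BMP6 (-3.02), the adhesion protein ADAM23 (-3.00), the axon guidance protein SEMA5A (-2.93) and the aromatic amino acid transporter SLC16A10 (-2.84).

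CUL3, the scaffold of a family of ubiquitin ligases, stood at 13.13 and 13.09 against 10.22 and 9.41, a change of -3.29 ± 0.31 (adjusted p 0.000144). UBE4B, a ubiquitin chain assembly factor, stood at 13.20 and 13.04 against 10.23 and 9.89 (-3.06). PCYOX1, a lysosomal enzyme that degrades prenylated cysteines, stood at 14.30 and 15.20 against 12.13 and 11.70 (-2.84), and the mitochondrial ATP synthase lysine methyltransferase ATPSCKMT at 10.98 and 10.81 against 8.01 and 7.90 (-2.94). With IFNg alone CUL3 stood at 12.79 and 12.75 and PCYOX1 at 14.78 and 14.23, close to DMSO, whereas GASK1B stood at 11.64 and 11.52, close to its level with silvestrol added. P3H2, CUL3, UBE4B, ADAM23 and PCYOX1 passed the test between IFNg plus silvestrol and IFNg, where 0.0153% of all clusters fell, with changes of -2.28, -2.95, -2.11, -2.17 and -2.59, and GASK1B did not (-0.90). Over all 117 falls the median change was -0.90 with IFNg alone and -1.21 with silvestrol added, and over the 350 rises 1.84 and 0.52.

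In the list of stress-response genes 2 of the 7 measured members fell and 0 rose, where 1.75% of all bright genes fell, and the 2 falls held under every alternative setting tried. SLC7A11, the cystine importer that feeds glutathione, stood at 15.24 and 15.88 against 12.84 and 12.82 (-2.73 ± 0.31, adjusted p 0.000592). VLDLR, a lipoprotein receptor that the integrated stress response can induce, stood at 9.59 and 9.31 against 6.63 and 6.62 (-2.82). The amino acid synthesis genes ASNS (-0.25), PHGDH (-0.64) and PSAT1 (-1.48), targets of the stress factor ATF4, did not pass. The list's median was -0.64.

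Among 10 p53 targets 1 rose and 1 fell. CDKN1A, the cell cycle inhibitor p21, stood at 9.60 and 8.90 against 11.67 and 12.36 (2.77 ± 0.38, adjusted p 0.0026), and SESN1, a regulator of mTORC1, at 8.10 and 8.18 against 5.99 and 6.36 (-1.96). The list median was near 0 and both call counts lie near the background. Of 18 cell cycle genes only CDCA7 fell, by 2.05 on the log2 scale, and 0 rose. CENPE, a mitotic motor, had the widest spread, with 7.75 and 8.86 against 8.996 and 13.19, and did not pass. None of the 7 NF-kB targets passed limma's test (list median 1.07). At an unadjusted p under 0.05 limma had 5 of the 7 (71.4%) higher and 0 lower, where 11.6% of all bright genes were higher. NFKBIZ (1.46, adjusted p 0.125) and TNFAIP3 (1.11, adjusted p 0.404) had among the larger differences.

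The translation initiation genes measured gave no calls in total RNA. The 9 members of the translation initiation list had changes from -0.97 to 0.31, with EIF4G1, the scaffold of eIF4F, at 11.89 and 12.47 against 11.41 and 11.09 and EIF4E, the cap-binding subunit, at 13.83 and 13.02 against 12.74 and 13.32. The helicase genes themselves are not analysed here. The 23 ribosomal protein genes had changes from -0.42 to 0.16. The 7 heat shock genes (-0.78 to 0.38) and the 9 histone genes (median 0.60) also had 0 calls. At an unadjusted p under 0.05 limma had 2 of the initiation genes and 1 heat shock gene lower, 0 higher, and 0 ribosomal or histone genes in either direction, where 15.9% of all bright genes were lower. In the histone list the DMSO arrays differed widely, as with H1-2 at 14.44 and 11.50. Of the interferon-induced death and complement genes 2 were measured, CASP8 (0.10) and CFB (0.90), and neither passed.

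The cell type could be checked on few markers. Of 7 melanocyte lineage genes measured 3 were bright, GPNMB at 17.47 and 17.99 with DMSO, the lineage factor MITF at 14.33 and 14.06 and PAX3 at 6.68 and 6.25. PAX3 averaged only just over the bright bound, and its arrays with IFNg plus silvestrol were the higher ones (7.32 and 7.94). The pigment genes TYRP1 and MLANA were dim, with means of 5.35 and 5.89, so the melanocytic label rests here on MITF and GPNMB. MITF stood at 12.83 and 13.40 with IFNg plus silvestrol, a difference of -1.08 that did not pass (adjusted p 0.327). Of 11 markers of T cells, macrophages, endothelium, fibroblasts and epithelium only PDGFRA exceeded the bright bound, at 7.72 and 8.48 against 6.42 and 6.49, and it did not pass (adjusted p 0.126). The list median of these markers was 4.28 and 4.51 on the DMSO arrays and 4.54 and 4.62 on the IFNg plus silvestrol arrays. The T cell markers CD2, CD8A and CD28 and the leukocyte marker PTPRC had means of 3.10 to 4.77.

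Polysomal RNA of the same treatments, on 4 other arrays, moved the same way for most of these clusters. The 2 comparisons share no array in their means, but all 12 arrays give the error of both tests and the bright bound. Of the 350 clusters higher in total RNA 167 were called higher on polysomes, 0 lower and 183 not called, where 0.555% of all clusters were called higher. Their median polysomal change was 1.53, against 0.0342 for all clusters and -0.2261 for bright ones, and 328 had the same sign. Among bright clusters 140 of the 252 rises were called higher on polysomes, where 244 of all 7808 bright clusters were. Of the 117 lower clusters 94 were called lower on polysomes, 0 higher and 23 not called, where 0.914% of all clusters were called lower. Their median was -2.34 and 115 had the same sign. Among bright clusters 89 of the 104 falls were called lower on polysomes, where 514 of all 7808 bright clusters were. The shared rises are 47.7% of the total RNA list and 45.9% of the polysomal one, and the shared falls 80.3% and 15.7%, since polysomes had 599 falls in all. Of all clusters, polysomal IFNg arrays had 0.478% higher and 1.93% lower against polysomal DMSO, and polysomal IFNg plus silvestrol arrays 1.09% higher and 0.301% lower against polysomal IFNg.

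IDO1 stood at 7.11 and 5.98 on the polysomal DMSO arrays and at 17.90 and 18.82 on the polysomal IFNg plus silvestrol arrays, a rise of 11.82. IRF1 rose by 10.49 and CD274 by 7.55 there, and JUN stood at 8.25 and 7.51 against 13.81 and 12.37 (5.21). On polysomes CUL3 fell from 12.41 and 12.78 to 8.54 and 8.40 and BMP6 from 9.61 and 11.01 to 6.09 and 5.93. In the lists 9 of the 10 MHC class I genes and 11 of the 12 called MHC class II genes also passed on polysomes, and 9 of the 10 called immediate-early genes. SPRY4 was the exception among the latter (1.05, adjusted p 0.284), and ERAP2 among the MHC class I genes (1.55, adjusted p 0.073). A test of the difference between the polysomal and the total RNA change called 0 clusters by limma, with a smallest adjusted p of 0.0609. At an unadjusted p under 0.05 limma had 1696 higher and 1843 lower of 65535 clusters. Counts of that order arise at this threshold where no cluster differs. The median SE of the difference between the fractions was 0.43 on the log2 scale.

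**Figure D5:**
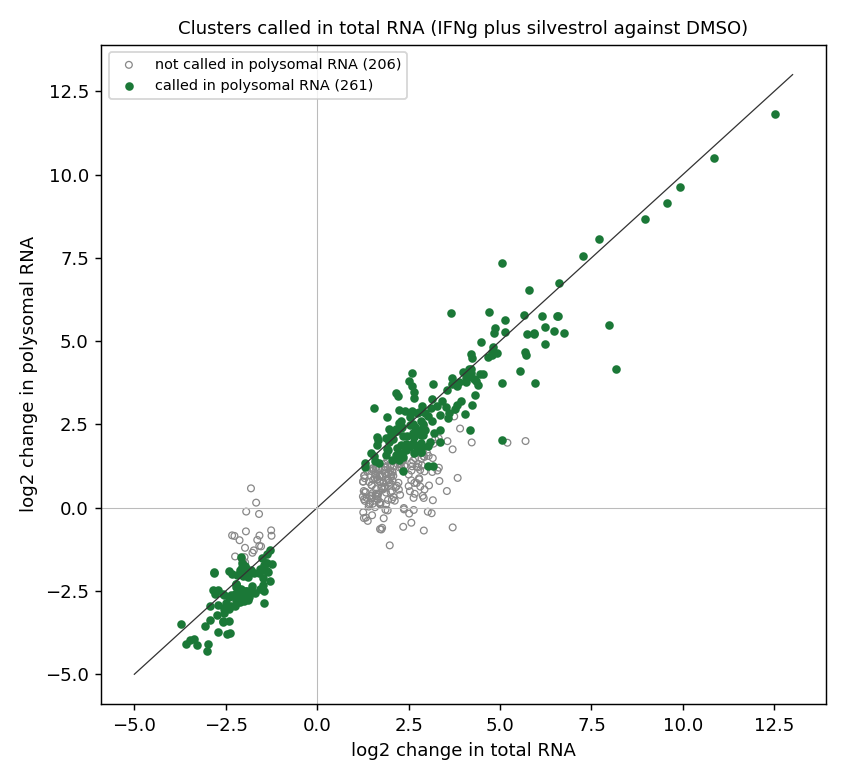
Log2 change with IFNg plus silvestrol against DMSO in total RNA (x axis) and in polysomal RNA (y axis) for the 467 clusters called in total RNA, with 1 point per cluster and the diagonal marking equal change. Filled green points, 167 higher and 94 lower, were also called in polysomal RNA and open grey points were not; most points lie on the same side of 0 on both axes (328 of the 350 rises and 115 of the 117 falls).

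By position, chromosome 6, which carries the MHC, had the largest share of rising bright clusters. There 59 of 942 rose (6.26%), and on the other chromosomes of the table the share was 2.38% to 3.23%. For falls the largest share was on chromosome 4, with 17 of 634 (2.68%), and the smallest on chromosome 6 (0.955%). The table's identifiers cover chromosomes 1 to 8 and 1729 clusters of chromosome 9, so genes elsewhere are not analysed here.

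Clusters without a gene symbol made up 123 of the 350 rises and 20 of the 117 falls. TC0600013092.hg.1 on chromosome 6 stood at 2.88 and 4.35 with DMSO, at 8.43 and 7.17 with IFNg and at 12.05 and 11.49 with IFNg plus silvestrol, a rise of 8.16. TC0800007383.hg.1 on chromosome 8 stood at 3.24 and 3.37 with DMSO, at 11.49 and 11.77 with IFNg and at 11.12 and 11.44 with silvestrol added, a rise of 7.98. The first climbed at both steps and the second was already at its level with IFNg alone. The largest unnamed falls were TC0500008356.hg.1 (-2.70) and TC0500009192.hg.1 (-2.59), both on chromosome 5. Among named RNAs that code for no protein, the lncRNAs FLJ32255 (2.63) and LMLN-AS1 (1.59), the microRNA gene MIR378D2 (2.31) and the minor spliceosome RNA RNU11 (2.22) rose, and the lncRNA PRRT3-AS1 fell (-1.58).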

How the data were processed

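RNA was extracted with Trizol and labelled with biotin for Affymetrix arrays, per the labels' protocols. The authors deposited 1 table of linear intensity for the 12 arrays; no source used here names its software, background correction or normalization. Intensities were all above 0 and were taken to log2 with no pseudocount. limma 3.58.1 (R 4.3.3) was fitted to all 65535 clusters with 1 mean for each of 6 groups of 2 arrays (6 residual degrees of freedom), and p-values were adjusted by Benjamini-Hochberg over all clusters at a threshold of 0.05. The labels do not say that replicate numbers pair the arrays, so no block was used. The script was tested on simulated data, with 50 bright clusters changed at each of 4 sizes. It recovered 6% of changes of 1 log2 unit, 60% of 2, 84% of 3 and 96% of 4, with 7 false calls. A gene that did not pass may therefore still have changed.

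Gene symbols came from GEO's platform annotation, which can be old: 16130 clusters have 1 symbol, 419 several and 48986 none; 16060 matched RefSeq's gene table, which updated 292 symbols. Genes named are the 12 largest rises and falls among bright called clusters with 1 symbol, called list members, and others named for contrast after their values were seen. The members and lists were chosen with earlier results of these data known. Alternatives tried were the block, the arrays fitted, variance model, centring, quantile normalization, filters, a pseudocount of 16, a fold of 1.5 and leaving out each array.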

Additional observations from a re-analysis of the deposited data

Results flagged for a closer look

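TAF7, a subunit of the general transcription factor TFIID, was chosen after its values were seen because its arrays moved in opposite directions in the 2 fractions. In total RNA it stood at 12.65 and 12.28 with DMSO and at 13.75 and 13.73 with IFNg plus silvestrol, a rise of 1.28. On polysomes it stood at 12.55 and 12.46 against 12.01 and 12.37, a difference of -0.3123. The test of the difference between the fractions did not pass (adjusted p 0.706), and the call in total RNA (adjusted p 0.0451) was lost under 13 of the 23 alternative settings.

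The polysomal IFNg arrays have no part in the means compared between IFNg plus silvestrol and DMSO. On them 117 of the 350 clusters that rose in total RNA were called higher against polysomal DMSO and 37 were called lower. In that comparison 0.478% of all clusters were called higher and 1.93% lower. Of the 350 rises 72.0% were bright, so shares over all clusters, most of them dim, are not a matched background.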

How the results depend on the processing

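No alternative reversed the direction of a named gene's call. Of 89 named genes called, 69 kept the call under all 23 alternatives and 20 lost it under at least 1: TAF7 under 13, JAK2 under 12, IFI44L and SPRY4 under 6, CDCA7, CD74, SESN1 and IRF2 under 5, and the others (among them HLA-DRA, HLA-DRB1, ADGRA3, TNFSF10 and SP100) under 4 or fewer. The 350 rises ranged from 181 to 359 and the 117 falls from 38 to 137 with single arrays left out, and the bright rises from 134 to 256 and bright falls from 34 to 122. Arrays left alone in a group were taken to vary like the other groups. Fitting bright clusters alone gave 335 rises and 189 falls, against 252 and 104 among bright clusters in the main fit. CD47, CCN2, ID3, NFKBIZ and PDGFRA did not pass in the main fit and were called with bright clusters fitted alone. ID3 was called under 12 of the 23 alternatives.

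The median polysomal change of the rises was 1.79 with the arrays compared alone, 1.77 with centring over bright clusters, 1.74 and 1.70 with quantile normalization over all arrays and within each fraction, and 1.27 with a pseudocount of 16; single arrays left out gave 1.43 to 2.48. That of the falls was -2.04 with centring over bright clusters, -2.05 with both quantile normalizations, -1.95 with bright clusters alone, -1.95 with the pseudocount and -2.68 to -1.78 with single arrays left out. The cause of these shifts was not tested. Calls lower on polysomes than in total RNA went from 0 to 1 with the replicate block, the intensity trend, centring over bright clusters, both quantile normalizations and the filter at the median intensity, and to between 0 and 2 with single arrays left out; calls higher stayed at 0.

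With replicate number as a block 360 clusters rose and 132 fell (257 and 116 bright), and 333 and 110 of these were among the main calls. The deviations of same-numbered arrays of the 2 groups compared correlated at 0.018, so the numbers are not shown to pair them. Those of the total IFNg and IFNg plus silvestrol arrays correlated at 0.21 over all clusters and 0.569 over bright ones. Between these 2 groups 27 clusters rose and 10 fell, 30 and 13 with the block in all groups and 25 and 8 with the block in these 2 groups alone, fits chosen after seeing the data. Among list counts the interferon-gamma signalling genes called higher ranged from 1 to 3, the chemokines and cytokines from 2 to 5, the antiviral genes ranged from 6 to 12, MHC class II from 9 to 13 and the immediate-early genes from 9 to 12, and all 10 MHC class I genes stayed called. A floor for values of 0 or below was not run, since there were none. Dim clusters limit what the rest can show.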

Other observations

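Further regulators outside the lists were higher with IFNg plus silvestrol than with IFNg alone. They were chosen after their values were seen and are given as values. HES1, the Notch-responsive repressor, stood at 11.90 and 11.94 with DMSO, at 12.56 and 12.24 with IFNg and at 16.54 and 15.86 with IFNg plus silvestrol. The circadian repressor BHLHE40 stood at 13.45 and 13.76, 13.88 and 13.61, and 16.91 and 17.03 in the same order. Both kept near their DMSO level with IFNg alone, with differences of 0.48 and 0.14, and were higher by 3.80 (adjusted p 0.000718) and 3.23 (adjusted p 0.000588) with silvestrol added. SKIL, which restrains TGF-beta signalling, was higher by 3.35, CSRNP1, a nuclear protein induced by AXIN1, by 3.34, and TIPARP, a mono-ADP-ribosyltransferase, by 2.47. These 5 calls held with replicate number as a block. A second, dimmer TIPARP cluster, TC0300012900.hg.1, rose by 5.202 against DMSO, with differences of 2.88 for IFNg alone and 2.32 for added silvestrol. NCOA7 and PTGS2, the inducible cyclooxygenase, rose at both steps. NCOA7 stood at 7.94 and 7.97, 10.66 and 10.59, and 13.62 and 13.70, and PTGS2 at 6.58 and 7.003, 8.99 and 8.36, and 11.26 and 10.64. On polysomes HES1 was higher by 3.996 with silvestrol added to IFNg (adjusted p 0.000113) and BHLHE40 by 2.64.

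In some genes array 2 lay far above array 1 both with IFNg and with IFNg plus silvestrol. SAMD9 stood at 7.36 and 11.89 with IFNg and at 7.77 and 12.44 with silvestrol added, CENPE at 8.66 and 12.26 and at 8.996 and 13.19, and SAMD9L at 11.19 and 14.63 and at 12.51 and 14.84. Over bright clusters the deviations of same-numbered arrays of these 2 groups correlated at 0.569, against -0.006 between the DMSO and the IFNg plus silvestrol arrays.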
